A study of Mus musculus with 10 samples.

Results

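Nipa2, Socs6, Rusc2, Fez1, R3hdm2, Kansl3, Lyrm9 and Morn2 are 8 mouse genes with fewer ribosome footprints in both macrophage lines carrying a guide RNA against Wdr4 than in their wild-type line. They were picked by symbol, out of 21934 symbols listed in both deposited tables, for lower footprints in the guide libraries. Those footprints, and every other value that sets a guide line against the wild-type line, are therefore given as a description and carry no test. The rule of that choice did not use the tumour macrophage values, but earlier results of these data were known when the genes were chosen. With 1 library per genotype and kind, that table allows no test either.

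Ribosome profiling sequences the stretches of mRNA that ribosomes shield from nuclease (footprints), and matched input RNA, here poly(A)-selected, gives the amount of each mRNA. The groups of the first table were lines of immortalized macrophages derived from bone marrow (iBMDM), described as monoclonal and labelled sgWdr4-1 (guide 1) and sgWdr4-2 (guide 2), made with lentivirus and puromycin selection, and a line labelled WT. The groups of the second table were F4/80-sorted tumour-associated macrophages (TAM) from liver tumours of inoculated Hepa1-6 hepatoma cells, grown in mice labelled Wdr4 cKO, with a myeloid deletion of Wdr4, or in mice labelled Wdr4 ff, with the floxed gene. Each of the 5 conditions had 1 input and 1 footprint library, 10 in all, and the sources used here give neither the Cre driver, the age or number of the mice, nor whether the WT line received a control vector.

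Wdr4 and the methyltransferase Mettl1 form an enzyme complex that places 7-methylguanosine on a subset of tRNAs. Footprints of a gene depend both on how much of its mRNA is present and on how that mRNA is translated, which is why they are read beside input RNA. The 8 genes have no common pathway. Nipa2 encodes a magnesium transporter, Socs6 an adaptor that brings signalling proteins to a ubiquitin ligase, and Rusc2 and Fez1 adaptors that link vesicles to kinesin motors. R3hdm2 carries an R3H domain, a fold that binds single-stranded nucleic acids, Kansl3 is a subunit of the NSL histone acetyltransferase complex, Lyrm9 belongs to the LYR motif family of small mitochondrial proteins, and Morn2 carries MORN repeats.

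The libraries limit what the labels can carry. Wdr4 input was 31.3 TPM under guide 1, 44.5 TPM under guide 2 and 44.6 TPM in WT, and 20.9 TPM in cKO against 39.8 TPM in ff. TPM gives a gene's share of its library, scaled for gene length and to a total of 1000000. Wdr4 footprints were higher in the targeted libraries, at 24.3 TPM under guide 1 and 26.9 TPM under guide 2 against 13.3 TPM in WT, and at 17.7 TPM in cKO against 8.51 TPM in ff, so groups are named as labelled. Mettl1 footprints were 114 TPM under guide 1, 82.3 TPM under guide 2 and 98.2 TPM in WT, and 48.4 TPM in cKO against 69.8 TPM in ff. The macrophage label was not matched by the data: 16 of 20 macrophage marker genes were under 1 TPM in every input, and Adgre1, which encodes F4/80, was listed at 0 in all 10 libraries. Of 14 fibroblast and stellate markers 7 were at 5 TPM or more in every input and the other 7 under 1 TPM. The summed level of that list was 4433 to 6326 TPM, of which Acta2 gave 2397 to 3785 TPM, and that of the macrophage list was 527 to 688 TPM, most of it Lgals3. Cd14 was the other macrophage marker at 5 TPM or more in every input, at 13.8 to 19.8 TPM. Under 1 TPM in every input were 9 of 9 T, B and NK cell, 6 of 6 neutrophil, 4 of 5 endothelial and 9 of 12 hepatocyte and hepatoma markers. On that last list Apoa2, at 90.2 to 139.5 TPM, and Apoa1, at 7.76 to 26.5 TPM, were at 5 TPM or more in every input. In bulk libraries such as these, fewer cells of a type and less RNA per cell cannot be told apart. The guide 1 footprint library stood apart, with 0.781% of its TPM from mitochondrially encoded genes against 9.94% to 14.6% in the other footprint libraries. For that reason values of the 8 genes are given for each guide, and the footprint count also for guide 2 alone. Read depth is not recorded in TPM, so no counting interval can be given.

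The annotated starts of these transcripts are shown first, because the series asks about translation and the first bases of an mRNA can mark genes that are translated as a class. Ribosomal protein mRNAs, for instance, often begin with a C and a run of pyrimidines (the 5′ terminal oligopyrimidine motif). RefSeq start sequences of build GRCm38.p6 were matched by symbol for 7 of the 8 genes; Socs6 was not matched. The 4 genes with a single listed start and the first start of R3hdm2 are printed with 60 bases before the start in lower case and the first 30 transcribed bases in capitals.
Nipa2, chr7:55962464-55962553, minus strand: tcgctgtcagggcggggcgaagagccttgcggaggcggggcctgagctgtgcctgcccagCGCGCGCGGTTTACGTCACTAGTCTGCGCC
Kansl3, chr1:36369152-36369241, minus strand: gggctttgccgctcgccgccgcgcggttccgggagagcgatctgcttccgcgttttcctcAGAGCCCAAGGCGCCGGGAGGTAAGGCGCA
Lyrm9, chr11:78826535-78826624, plus strand: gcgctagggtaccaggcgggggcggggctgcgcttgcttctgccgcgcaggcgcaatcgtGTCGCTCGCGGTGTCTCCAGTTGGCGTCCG
Morn2, chr17:80290152-80290241, plus strand: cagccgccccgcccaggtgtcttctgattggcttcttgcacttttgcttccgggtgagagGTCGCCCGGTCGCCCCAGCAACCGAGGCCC
R3hdm2, chr10:127380608-127380697, plus strand: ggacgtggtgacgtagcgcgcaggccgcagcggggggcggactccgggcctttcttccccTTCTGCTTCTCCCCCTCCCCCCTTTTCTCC

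The starts do not share an opening. A C followed by 4 pyrimidines (C or T), searched on the transcribed strand at the first base, was found at 0 of the 12 listed starts of the 7 genes, against 2.44% of the 7756 starts of genes measured in the iBMDM table and 14 of 68 starts of cytosolic ribosomal protein genes (20.6%). For 12 starts that count of 0 is near the share over measured genes, so nothing about the 7 genes is read from it. R3hdm2 has 29 pyrimidines among its first 30 bases at the start shown, whereas Kansl3 has 9. The GC content of the 300-base windows ran over the 12 starts from 39.7% to 77.7% with a median of 62.2%, beside 61.7% over the starts of measured genes. These letters describe the annotated windows only. Which start the cells used was not measured.

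In the iBMDM table all 8 genes had fewer footprints under each guide than in WT, as their choice requires (background 28.1% of 7536 genes). On the log2(TPM + 1) scale the median over the 8 was -2.24 under guide 1 and -1.84 under guide 2, beside 0.09 and -0.03 over those 7536 genes, which averaged at least 5 TPM in input and in footprints. All 8 passed that filter in both tables. At least 2-fold fewer footprints under both guides, the size rule used throughout, was met by 7 of the 8 genes (background 1.43%, or 108 genes), Lyrm9 being the exception. Under guide 1 alone it was 8 genes (background 10.3%) and under guide 2 alone 7 (background 4.63%). Ranked by the smaller of the guide changes, Fez1 was at rank 1 of those 108 genes, Nipa2 at 3, Socs6 at 6, R3hdm2 at 8, Morn2 at 9, Rusc2 at 10 and Kansl3 at 21. The choice used these values, so nothing is read from the count.

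Input RNA differed less than footprints for each of the 8 genes under guide 1, and for 7 of them, all but Lyrm9, under guide 2. Input was at least 2-fold lower under both guides for 0 of the 8 genes (background 0.0265%). It was at least 2-fold higher for 1, Lyrm9 (background 0.0133%). Lyrm9 is itself the 1 gene of 7536 in that background, so the share is no comparison. Lyrm9 passed the input filter through its guide inputs, with 1.04 TPM in WT. The median input change was 0.41 under guide 1 and 0.04 under guide 2. Translation efficiency, the log2 ratio of footprints to input within a condition, was at least 2-fold lower under both guides for all 8 (background 2.04%), with medians of -2.68 under guide 1 and -2.22 under guide 2. The same contrast chose the genes, so this too is a description.

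**Figure D1:**
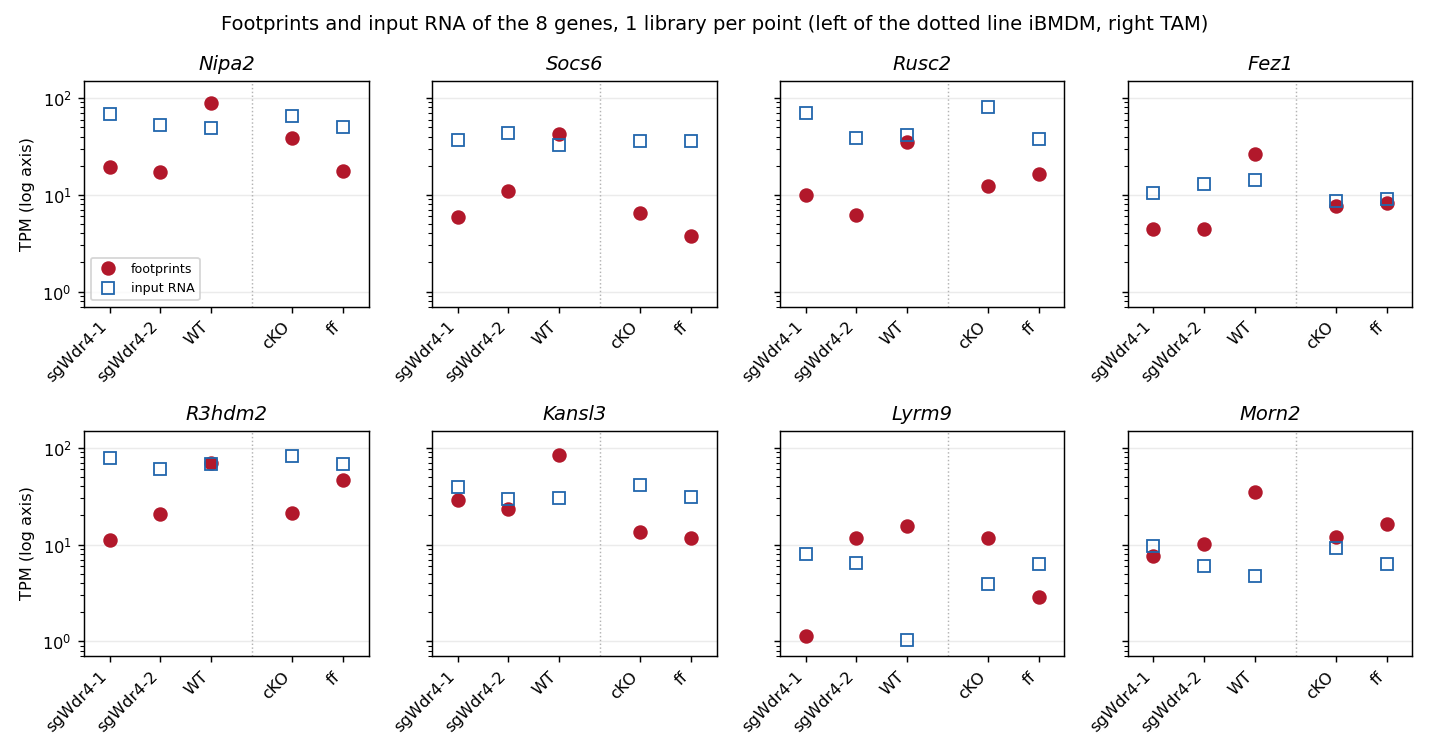
Footprints (filled circles) and input RNA (open squares) of the 8 genes in TPM on a log axis, 1 library per point, with the iBMDM libraries left of the dotted line and the TAM libraries right of it. In each panel the WT footprints are the highest of the 5 footprint values, and the ff footprints lie below them, at 3.77 TPM for Socs6 and 46.5 TPM for R3hdm2.

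Among the transport and signalling genes, Nipa2 had footprints of 19.2 TPM under guide 1 and 17.3 TPM under guide 2, against 88.3 TPM in WT. Both guide libraries were low and close to each other, with log2 changes of -2.15 and -2.29. Nipa2 input was 68.8 TPM under guide 1 and 53.1 TPM under guide 2, against 49.6 TPM in WT, so the mRNA was not lower in either guide line. The gene had 0.279 footprint TPM per input TPM under guide 1 and 0.326 under guide 2, against 1.78 in WT.

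Socs6, of a family best known for shutting down cytokine and growth factor receptors, had footprints of 5.84 TPM under guide 1 and 10.9 TPM under guide 2, against 42.5 TPM in WT. The WT library was again the high one. Its input was 37.0 TPM under guide 1 and 44.0 TPM under guide 2, against 32.9 TPM in WT, the lowest input of the 5 conditions. The translation efficiency changes were -2.84 and -2.28.

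Rusc2 had footprints of 10.05 TPM under guide 1 and 6.11 TPM under guide 2, against 34.8 TPM in WT. Its input differed between the guide lines, at 70.5 TPM under guide 1 and 39.0 TPM under guide 2, against 41.8 TPM in WT. Of the guide lines, the one with less Rusc2 mRNA also had fewer Rusc2 footprints. Fez1, the other kinesin adaptor, had footprints of 4.48 TPM under guide 1 and 4.46 TPM under guide 2, against 26.6 TPM in WT. Fez1 was the 1 gene of the 8 whose input was lower under both guides, at 10.5 and 12.9 TPM against 14.2 TPM in WT, changes of -0.41 and -0.13 beside footprint changes of -2.33 and -2.34.

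Among the nuclear and nucleic acid-binding genes, R3hdm2 had footprints of 11.1 TPM under guide 1 and 20.5 TPM under guide 2, against 70.3 TPM in WT. Its input was 78.4 TPM under guide 1 and 60.1 TPM under guide 2, against 68.6 TPM in WT, the highest input of the 8 genes in each of these lines. R3hdm2 had 0.141 footprint TPM per input TPM under guide 1 and 0.341 under guide 2, against 1.02 in WT. Kansl3 had footprints of 29.0 TPM under guide 1 and 23.3 TPM under guide 2, against 83.6 TPM in WT, and it kept the most footprints of the 8 in both guide lines. Its input of 39.1 TPM under guide 1 and 29.8 TPM under guide 2, against 30.3 TPM in WT, left translation efficiency changes of -1.85 and -1.78.

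Lyrm9 and Morn2 had the lowest input of the 8 genes in each iBMDM line. Lyrm9 footprints were 1.13 TPM under guide 1 and 11.6 TPM under guide 2, against 15.6 TPM in WT, so guide 2 lay near WT (log2 change -0.39) and only guide 1 was far below it (-2.96). Its input was 8.06 TPM under guide 1 and 6.43 TPM under guide 2, against 1.04 TPM in WT. The WT library was the lowest of the 5 inputs, with 3.87 TPM in cKO and 6.26 TPM in ff. The Lyrm9 translation efficiency changes of -5.11 under guide 1 and -2.25 under guide 2 rest on that WT input as well as on footprints. Morn2 footprints were 7.60 TPM under guide 1 and 10.1 TPM under guide 2, against 35.0 TPM in WT. Morn2 input was 9.68 TPM under guide 1 and 5.99 TPM under guide 2, against 4.72 TPM in WT.

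**Figure D2:**
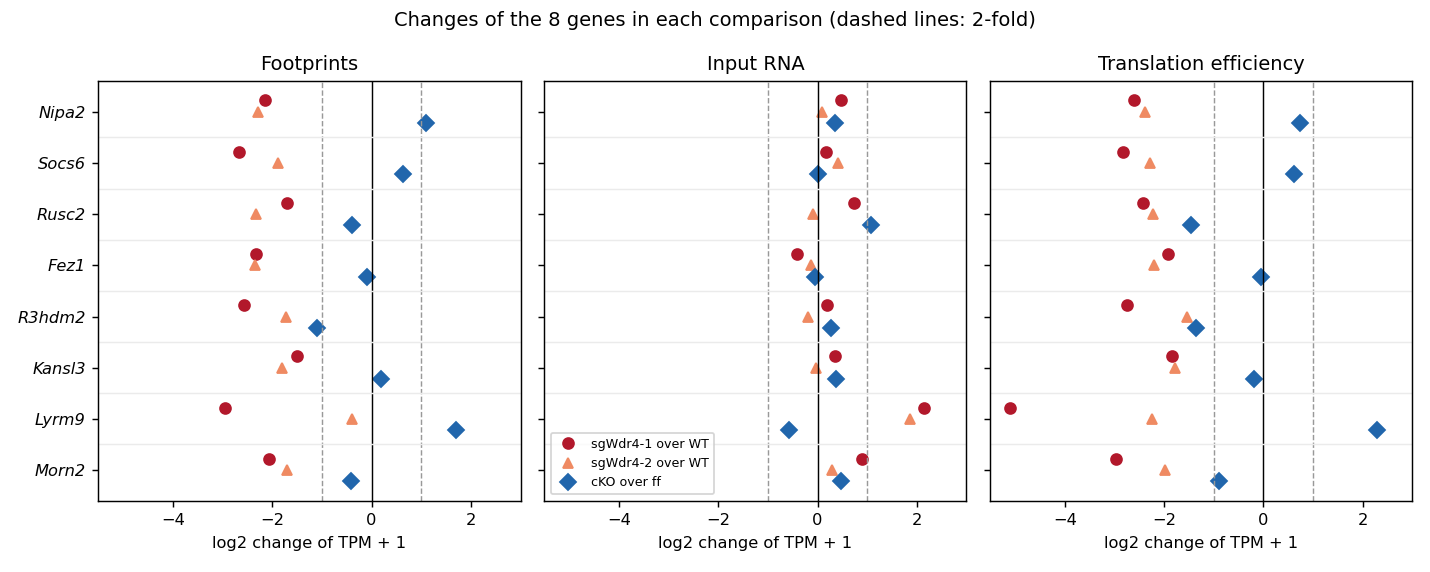
Log2 changes of TPM + 1 for the 8 genes in footprints, input RNA and translation efficiency, with guide 1 over WT as circles, guide 2 over WT as triangles and cKO over ff as diamonds; dashed lines mark 2-fold. The guide points lie left of 0 in footprints for all 8 genes, while the cKO diamonds run from -1.09 for R3hdm2 to 1.71 for Lyrm9.

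In the TAM table the 8 genes were split in direction. In cKO against ff, footprints were higher for 4 of the 8 genes, Nipa2, Socs6, Kansl3 and Lyrm9 (background 36.1% of 7101 genes), and lower for the other 4, Rusc2, Fez1, R3hdm2 and Morn2 (background 63.9%). At least 2-fold lower in cKO was 1 of the 8 (background 8.15%) and at least 2-fold higher were 2 (background 2.73%). For 8 genes the counts by any amount and the count of lower genes are near those shares, so nothing is read from them. The count of higher genes was not tested. Socs6 and Lyrm9 passed the filter on TAM footprints only through cKO, with 3.77 TPM and 2.89 TPM in ff. The median footprint change over the 8 was 0.05, beside -0.20 over all 7101 genes. That lower level of the whole table went to 0.01 when libraries were rescaled to the same median, so changes near 0 depend on the scaling.

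Lyrm9 and Nipa2 were the genes that went against the guides by more than 2-fold. Lyrm9 footprints were 11.7 TPM in cKO, against 2.89 TPM in ff, a log2 change of 1.71 at the 99.5th percentile of all genes. Its input was lower in cKO, at 3.87 TPM against 6.26 TPM in ff, and its translation efficiency change was 2.28, the 1 value of the 8 at 2-fold or more above 0 (background 4.03%); with rescaling to the same median Nipa2 passed too, at 1.04. Nipa2 footprints were 39.0 TPM in cKO, against 17.7 TPM in ff, a change of 1.10 at the 97.9th percentile. Nipa2 input was 65.3 TPM in cKO, against 50.8 TPM in ff, and the translation efficiency change was 0.74.

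Socs6 and Kansl3 were higher in cKO by less. Socs6 footprints were 6.42 TPM in cKO, against 3.77 TPM in ff (0.64), with input at 36.4 TPM in cKO and 35.9 TPM in ff. Both footprint values are far under the 42.5 TPM of WT. Kansl3 footprints were 13.5 TPM in cKO, against 11.7 TPM in ff (0.19), and with input at 41.0 TPM in cKO against 31.3 TPM in ff its translation efficiency change was -0.19, which turned to 0.10 with rescaling to the same median.

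R3hdm2 was the gene that came nearest to the guides in the TAM table. Its footprints were 21.3 TPM in cKO, against 46.5 TPM in ff, a log2 change of -1.09, and its input was 81.3 TPM in cKO, against 67.5 TPM in ff. The translation efficiency change of -1.36 was at the 7.93rd percentile of all genes, and with rescaling to the same median the footprint change was -0.88, short of 2-fold. Rusc2 had a translation efficiency change of -1.47, but through its mRNA more than its footprints: input was 80.1 TPM in cKO, against 37.6 TPM in ff, and footprints were 12.3 TPM in cKO, against 16.4 TPM in ff. Rusc2 was the 1 gene of the 8 with input at least 2-fold higher in cKO (background 1.42%), and 0 of the 8 were 2-fold lower (background 0.169%). At least 2-fold lower translation efficiency in cKO was found for these 2 of the 8 genes (background 16%).

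Morn2 and Fez1 had footprint changes within 2-fold between the genotypes. Morn2 footprints were 12.1 TPM in cKO, against 16.3 TPM in ff (-0.41), with input of 9.14 TPM in cKO, against 6.26 TPM in ff, which left a translation efficiency change of -0.89. Fez1 footprints were 7.60 TPM in cKO, against 8.15 TPM in ff (-0.09), and its input was 8.70 TPM in cKO, against 9.01 TPM in ff. The sign of the Fez1 footprint change turned to 0.10 with rescaling to the same median and to 0.01 with rescaling that left out histone, ribosomal protein and mitochondrially encoded genes.

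**Figure D3:**
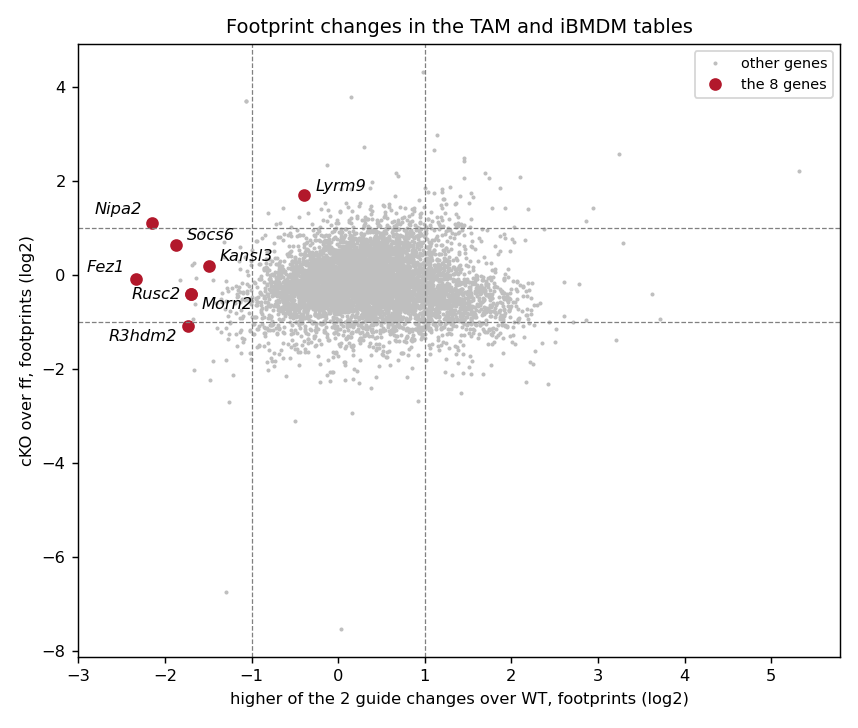
Footprint change of cKO over ff against the higher of the guide changes over WT, both log2, for the 6927 genes measured in both tables (grey) and the 8 genes (red); dashed lines mark 2-fold. By choice 7 of the 8 genes lie left of the lower 2-fold line, while Lyrm9 lies at -0.39, among the other genes. Rusc2 and Morn2 lie at almost the same point. On the vertical axis the 8 genes spread above and below 0.

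The wider group of genes that were low under both guides was lower in cKO more often than all genes, as counts. There were 93 genes at least 2-fold lower under both guides and measured in both tables, with 7 of the 8 among them. In cKO 27 of the 93 were also at least 2-fold lower (29%), against 7.77% of all 6927 genes. At least 2-fold higher were 3 (3.23%), near the 2.61% of all genes. By any amount 76 were lower (81.7%), against 64.1%, and 17 were higher (18.3%), against 35.9%. The guide and cKO comparisons share no library. No test was made of these shares, since the genes are not independent replicates and each library is a single one. The background was not matched to the 93 genes for footprint level. At a filter of 20 TPM, 26 of 4008 genes were at least 2-fold lower under both guides and 170 of 3590 in cKO. At 5 TPM these were 108 of 7536 and 579 of 7101. Whether level accounts for the excess was not tested. Outside the 8, the first of the 108 iBMDM genes by the smaller guide change were Ift88 of ciliary transport (-2.25 under guide 1 and -2.16 under guide 2), Lmbr1l (-2.09 and -2.63) and Rad54l2 (-1.89 and -1.89). These 3 had under 3 TPM of footprints in each guide line, against 16.5, 13.8 and 13.4 TPM in WT, and did not pass the filter in the TAM table, so they are not among the 93.

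In all 8 genes the WT footprints were the highest of the 5 footprint libraries (background 15.5% of 6927 genes), above ff, the other control, as well as above the guides. The tables were normalised separately, so the levels set across them are descriptive. WT footprints were 11.3-fold those of ff for Socs6, 7.17-fold for Kansl3, 5.38-fold for Lyrm9, 4.99-fold for Nipa2, 3.27-fold for Fez1, 2.14-fold for Morn2, 2.12-fold for Rusc2 and 1.51-fold for R3hdm2. At least 2-fold above ff on the log2(TPM + 1) scale were 7 of the 8 (background 2.69%), and 27 of the 93 genes at least 2-fold lower under both guides (29%). The choice favours genes with high WT footprints, so this count supports nothing further.

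Input RNA of the 8 genes lay closer in the control libraries. The median WT minus ff difference of the 8 genes was 1.84 in footprints and -0.04 in input, beside 0.03 and -0.0021 over all genes, and the input differences farthest from 0 were those of Lyrm9 (-1.83) and Fez1 (0.61), Fez1 in the direction of its footprints (1.59). Set beside the guides, ff footprints were above both guide lines for 4 genes (Rusc2, Fez1, R3hdm2 and Morn2; background 27%), between them for 2 (Nipa2 and Lyrm9; background 39.3%) and below both for 2 (Socs6 and Kansl3; background 33.7%). For Nipa2 the values were 19.2 TPM under guide 1, 17.3 TPM under guide 2 and 17.7 TPM in ff. Whether the WT footprint library, the guides or the cell source sets these gaps cannot be told apart with 1 library each.

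**Figure D4:**
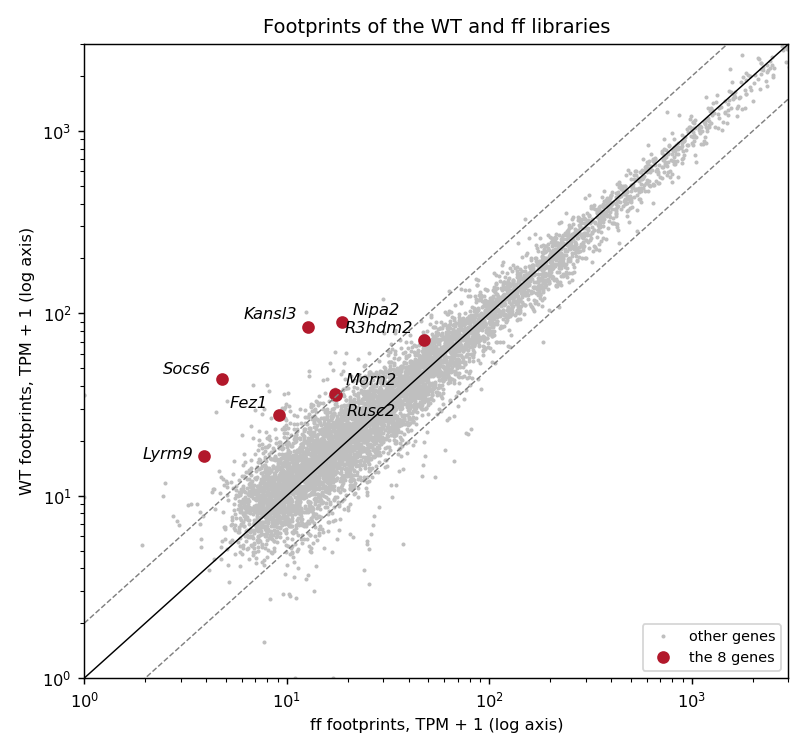
WT footprints against ff footprints, TPM + 1 on log axes, for genes measured in both tables (grey) and the 8 genes (red); the solid line marks equal values and the dashed lines 2-fold. R3hdm2, at 70.3 TPM in WT and 46.5 TPM in ff, lies inside the 2-fold lines, Rusc2 and Morn2 lie at the upper one, and the other 5 lie above it.

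Translation efficiency of the 8 genes was highest in WT too. The median log2 ratio of footprints to input over the 8 genes was -1.94 under guide 1, -1.43 under guide 2, 0.84 in WT, -1.13 in cKO and -1.02 in ff. Over all measured genes it was -0.43, -0.63, -0.58, -0.85 and -0.59 in that order. In WT 7 of the 8 genes had more footprint TPM than input TPM, Rusc2 being the exception (background 31.1%). In ff this held for Morn2 alone, at 2.61 footprint TPM per input TPM (background 32.4%). Each of the 8 genes had its highest translation efficiency in WT (background 17.6%). High WT footprints were part of how the genes were chosen, so nothing is read from the WT counts. The genes differed in where translation efficiency was lowest: it was under guide 1 for 5 genes, under guide 2 for Fez1, in cKO for Kansl3 and in ff for Socs6.

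The genes differed in how their 6 changes, input and footprints in 3 comparisons, ran together. The closest pair was Nipa2 and Socs6, with a Euclidean distance of 0.98 on the log2 scale, both lower under the guides and higher in cKO. Lyrm9 was the most distant, at 3.14 or more from each of the others. Outside the 8, among genes measured in both tables, Ifnar1, an interferon receptor chain, and Arhgap21 were most like Kansl3 (0.33 and 0.44), Parp6 and Nsmf most like R3hdm2 (0.46 and 0.72), and Sspn and Kmt5b most like Morn2 (0.62 and 0.71). Brpf3 and Senp6 were most like Fez1 (0.79 and 0.99), Ifnar1 and Ereg most like Rusc2 (1.01 and 1.03), and Fam53a most like Nipa2 (0.91). Brpf3 also followed Nipa2 as the nearest to Socs6, at 0.99. The nearest to Lyrm9, Hddc3 and Pbx3, were 2.42 and 2.88 away, so no measured gene came close to it.

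No measured relative of the 8 genes was past 2-fold with them under both guides. Over 7 lists of family members and partners, 55 genes besides the 8 were measured in the iBMDM table. Of these 0 were at least 2-fold lower under both guides (background 1.43%). For 55 genes that count is near the background share, so nothing about the relatives is read from it. Of 8 other magnesium transport genes, the medians were -0.34 under guide 1 and -0.21 under guide 2, and Nipal1, of the same transporter family as Nipa2, had -0.35 and -1.44. Of 4 other SOCS genes the medians were -0.37 and -0.35, with Socs4 at -0.89 and -0.30, Socs5 at -0.90 and -0.40, Socs2 at 0.15 and -0.71, and Socs3 at 1.20 and 0.50. Of 15 other genes of kinesin and AP-4 vesicle transport they were -0.07 and -0.12, and Fez2, the paralogue of Fez1, had 0.38 and -0.41.

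The nuclear and mitochondrial families gave the same count. Of 9 other NSL and MSL complex genes the medians were 0.07 under guide 1 and -0.27 under guide 2, with Kansl1, the scaffold of the NSL complex, at -0.77 and -0.99, Kansl2 at -0.49 and -0.14, and the subunits Wdr5 at 0.36 and 0.07 and Mcrs1 at 0.94 and 0.55. Of 7 other R3H domain genes they were 0.79 and -0.09, and R3hdm1, the paralogue of R3hdm2, had -0.86 and -0.01. Of 11 other genes of the LYR list they were -0.66 and 0.07. Setd7, the 1 other measured gene of the MORN list, had 0.13 and 0.11.

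Of 49 relatives measured in the TAM libraries, 4 were at least 2-fold lower in cKO footprints (8.16%) and 1 was higher (2.04%), shares near the 8.15% and 2.73% of all genes. The lower ones were Nipal1 (-1.64), Zfyve27 of vesicle transport (-1.17), R3hcc1l (-1.19) and Parn, a poly(A) ribonuclease (-1.10). The higher one was Rusc1 (1.03), whose input was also higher (1.29) and which did not pass the filter in the iBMDM table. The LYR list had a median of 0.45 in cKO, and none of its 11 other genes was past 2-fold.

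Nipa2 and Morn2 each overlap a protein-coding gene that is listed with values in the tables. Cyfip1 overlaps Nipa2 in the RefSeq annotation; its footprints were 55.6 TPM under guide 1 and 15.0 TPM under guide 2, against 20.1 TPM in WT, and 10.1 TPM in cKO against 19.9 TPM in ff. Cyfip1 was thus higher under guide 1 and lower in cKO, where Nipa2 went the other way, and both were lower under guide 2. Dhx57 overlaps Morn2 and had footprints of 2.66 TPM under guide 1 and 0.778 TPM under guide 2, against 1.68 TPM in WT. Whether counting used strand is not given in the sources used here, so reads in the shared stretches may be assigned to either gene.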

How the data were processed

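The authors deposited 2 tables of TPM, 1 for 6 iBMDM and 1 for 4 TAM libraries, each summing to about 1000000 per library. The submitters' processing notes name fastp 0.18.0 and, with no version, Bowtie2. Build, annotation, quantifier and the handling of multi-mapping reads were not given in the sources used here. For 20 symbols with 42 rows the row with the highest mean was kept, none of them among the 8 genes.

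Changes were computed within a table as differences of log2(TPM + 1), which understates changes of low genes. A gene was kept where its input TPM and its footprint TPM each averaged 5 or more (7536 in the iBMDM table, 7101 in the TAM table, 6927 in both). With TPM and 1 library per condition and kind no test or p-value is given; counts use a 2-fold size rule beside the share over all genes. The counting step was checked on simulated data, with drops placed only in genes averaging 20 TPM or more. The simulated libraries had far less spread than the footprint libraries. That check therefore covers the arithmetic, not how the size rule behaves on these data. The members, family lists and marker lists were chosen with earlier results of these data known. Named genes were the 8, Wdr4, Mettl1, family genes past 2-fold under both guides or in cKO, the 2 nearest genes per member by distance over 6 changes, and the first 3 other lower genes; others named among the relatives, markers and overlapping genes were chosen after their values were seen. The ranking of nearest and lower genes skipped histones, pseudogenes, gene models and mitochondrially encoded genes. RefSeq supplied start sequences (GRCm38.p6). Of 21934 symbols 19910 matched RefSeq. Alternatives were other pseudocounts (0.1 and 5), 2 rescalings, no filter, a filter at 20 TPM, summed repeated symbols, and each guide alone. The scripts ran on pandas 2.3.3, numpy 2.4.6 and matplotlib 3.10.9 under Python 3.11.15.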

Additional observations from a re-analysis of the deposited data

Results flagged for a closer look

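Footprints of 4 genes were lower in both guide libraries than in WT but higher in cKO than in ff; the difference between the tables was not tested, and the direction in the iBMDM table was set by how the genes were chosen. The log2 change of cKO over ff was 1.71 for Lyrm9, where guide 1 had -2.96 and guide 2 had -0.39. It was 1.10 for Nipa2, against guide changes of -2.15 and -2.29. It was 0.64 for Socs6, with -2.67 and -1.88 under the guides. It was 0.19 for Kansl3, with -1.50 and -1.80 under the guides, a change within 2-fold.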

How the results depend on the processing

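No paired analysis was possible because each condition has 1 library of each kind and the result comes from no test. Footprints kept their sign in every setting run for each gene and comparison except Fez1 in cKO. Only the 2 rescalings could have turned a sign. A pseudocount cannot turn one, and the filters and summed symbols leave the values of the 8 genes unchanged. The guide signs were also set by the choice of genes. The count of genes at least 2-fold lower in footprints under both guides was 7, and 8 with guide 1 alone and 7 with guide 2 alone. A filter at 20 TPM left 3 of the 8 iBMDM and 2 of the 8 TAM entries, which gave counts of 3 for footprints and 3 for translation efficiency under both guides, 0 for higher input under both guides, 1 for higher footprints, 1 for lower translation efficiency and 0 for higher input in cKO, and a median input change of -0.0234 under guide 2. A pseudocount of 5 gave 0 genes with higher input under both guides, and in cKO 0 with lower footprints, 1 with higher footprints and 0 with higher input. Rescaling to the same median gave 0 genes with lower footprints and 0 with higher input in cKO, and a median translation efficiency change in cKO of 0.16 in place of -0.12. Rescaling that left out histone, ribosomal protein and mitochondrially encoded genes gave 0 with lower footprints in cKO and a median translation efficiency change of 0.0363. The depth of the libraries is unknown, which limits values of a few TPM, such as the Lyrm9 footprints under guide 1 and the Socs6 footprints in ff.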
